A study of Mus musculus with 4 samples.

Results

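Regulators of the formation of multiciliated cells, 10 genes in all, were followed through single-cell RNA sequencing of 4 libraries from 2 mouse tracheas: Gmnc, Mcidas, Trp73, Myb, Foxn4, Ccno, Deup1, Foxj1, Rfx2 and Rfx3. They were chosen by their symbols, as 10 of the 30907 features of the deposited gene list, and all 10 were found in each of the 4 matrices. In ciliated-like cells Foxj1, Rfx2 and Rfx3 differed by less than 1.5-fold in the 4 comparisons of libraries. Gmnc was 11.7-fold lower in donor-derived than in endogenous ciliated-like cells of the recipient of induced basal cells, at a near-equal level of Foxj1. Myb was 1.73-fold higher in the same pair, and Trp73 differed by 1.5-fold or more only between the endogenous cells of both recipients. In the recipient of primary basal cells, 96.4% of the donor-derived and 96.0% of the endogenous UMIs (counted RNA molecules) of Foxn4 came from 11 and 25 cells, which were chosen by their UMIs of Deup1, Ccno and Mcidas and not by Foxn4. The other recipient had 1 donor-derived and 2 endogenous cells past the same limit, and 1 of the 2 was a basal-like cell in which Ccno alone among the 10 genes was found.

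The tracheas came from 1 recipient of induced basal cells (iBCs, airway basal cells made from pluripotent stem cells) and 1 recipient of primary tracheal basal cells (primary BCs), both adult mice labelled as wild type. The iBC recipient carried the strain label 129 X1/S1 and was analysed 192 days after the transplant, and the primary BC recipient carried the label C57BL/6 and was analysed at 69 days. In both, the detergent polidocanol at 2% served to injure the epithelium, 6000000 cells followed by the intratracheal route after 5 hours; the tissue was digested with pronase and sorted within a Calcein Blue live gate. The GFP+ sort of each trachea holds donor-derived cells and the GFP- sort endogenous cells, named GFP+ and GFP- from here on; libraries were made on the 10x Chromium system. A control trachea that the protocol mentions was not analysed here. Each group is thus 1 library of 1 animal, so no difference has a replicate check and no test was made. Donor cell type, strain label, days since transplant and animal change together between the recipients and cannot be told apart.

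Multiciliated cells of the airway arise from basal cells through secretory or intermediate progenitors when Notch signals are low. The geminin relatives GEMC1 (gene Gmnc) and multicilin (gene Mcidas) act with E2F factors early in this program, and p73 (gene Trp73) and MYB belong to the same early tier. CCNO and DEUP1 serve the amplification of centrioles on deuterosomes, from which the many basal bodies are made. FOXJ1 and the RFX factors, which bind X-box sequences, then switch on the genes of the motile axoneme and remain on in mature ciliated cells.

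On the build GRCm38, in the GENCODE vM21 annotation, Ccno lies at chr13:112987802-112990777 and Mcidas at chr13:112993845-113000394, both on the plus strand and 3067 bases apart. Cdc20b, another gene of the deuterosome program, starts 34716 bases after the end of Mcidas, with 0 other annotated genes between Ccno and Cdc20b beyond Mcidas. Deup1 lies at chr9:15559864-15627933 on the minus strand. Promoter windows from RefSeq (GRCm38.p6) were found for 9 of the 10 genes. They were searched on both strands over the 250 bases before the RefSeq start for the frame of an X-box (GTNNCC, then 2 free bases, then GGNNAC) and for the hexamer GTTGCC. The frame occurred in windows of 2 of these genes, Ccno and Deup1, and in windows of 1.81% of all 27025 genes (1.57% of all 32851 windows). The hexamer occurred in windows of 4, Mcidas, Rfx2, Ccno and Deup1, and in windows of 11.8% of all genes (10.4% of all windows). In Ccno and Deup1 it overlaps the frame. A match describes letters and not a bound site. The stretches of Ccno, Mcidas and Deup1 are shown because these genes mark the cells described below, and the first pair are neighbours on chromosome 13. Capitals mark the frame in Ccno (chr13:112987552-112987801, plus strand) and Deup1 (chr9:15627920-15628096, minus strand) and the hexamer in Mcidas (chr13:112993618-112993844, plus strand), each written 5′ to 3′.
Ccno: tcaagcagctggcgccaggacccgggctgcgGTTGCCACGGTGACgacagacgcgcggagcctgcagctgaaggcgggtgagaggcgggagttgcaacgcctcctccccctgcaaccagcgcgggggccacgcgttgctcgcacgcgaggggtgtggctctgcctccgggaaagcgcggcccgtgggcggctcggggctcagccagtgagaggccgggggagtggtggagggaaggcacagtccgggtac
Mcidas: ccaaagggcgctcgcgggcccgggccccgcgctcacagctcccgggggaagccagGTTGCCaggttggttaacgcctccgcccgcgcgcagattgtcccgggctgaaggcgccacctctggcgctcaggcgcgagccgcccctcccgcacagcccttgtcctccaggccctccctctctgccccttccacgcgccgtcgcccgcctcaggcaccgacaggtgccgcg
Deup1: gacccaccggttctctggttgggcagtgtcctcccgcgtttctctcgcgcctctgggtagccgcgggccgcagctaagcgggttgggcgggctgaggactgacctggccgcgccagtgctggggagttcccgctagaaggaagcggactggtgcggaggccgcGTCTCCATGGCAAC
The Ccno frame ended 205 bases before the start site. The Deup1 frame ended 73 bases before the RefSeq start, and its last base lies 14 bases past the gene start in GENCODE.

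The other genes lie at chr16:26913553-26991652 (Gmnc), chr4:154056253-154140208 (Trp73), chr10:21124935-21160984 (Myb), chr5:114254164-114273807 (Foxn4), chr11:116330704-116335399 (Foxj1), chr17:56775897-56831013 (Rfx2) and chr19:27761721-28011166 (Rfx3), all on the minus strand. Gm26577 overlaps Myb, Trp73os and Gm26036 overlap Trp73, Gm8412 and Gm20407 overlap Rfx3, and 4930540M03Rik overlaps Deup1. Whether counting used the strand is not given in the sources used here, so counts of these 4 genes are uncertain to that extent.

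The libraries held 1421 to 1891 barcodes and 21504563 to 26625123 UMIs (unique molecular identifiers), and 6520 of 6784 barcodes were kept after filtering. Only 2 barcodes were shared between libraries. EGFP had a UMI in 50.2% and 100% of GFP+ ciliated-like cells of the iBC and the primary BC trachea, against 0.278% and 0.98% of the GFP- ones. Cells were classed by marker genes, none of them among the 10, and 261 GFP+ and 360 GFP- ciliated-like cells of the iBC trachea and 168 GFP+ and 204 GFP- ones of the primary BC trachea were found. All 20 ciliated markers had UMIs in each library, and their summed level was 17621 to 19244 CPM (UMIs scaled to a class sum of 1000000). Few cells lay near the ciliated limit, with 1 to 8 per library between 0.5 times the limit and the limit, and 1 to 8 between it and 1.5 times the limit. In a joint clustering without integration, ciliated-like cells fell apart by trachea, and by library in the iBC trachea. All intervals given are exact 95% intervals and cover counting error only.

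Gmnc, the most upstream of the group, was nearly missing from the GFP+ ciliated-like cells of the iBC trachea. It had 12 UMIs there, or 3.47 CPM (1.79 to 6.06), against 176 UMIs, or 40.7 CPM (34.9 to 47.1), in the GFP- ciliated-like cells of the same trachea. Its level in the primary BC trachea was 37.5 CPM (31.0 to 44.9) in GFP+ and 25.5 CPM (20.9 to 30.8) in GFP- ciliated-like cells. The GFP+ iBC library therefore stands below the other 3, whose levels lie within 1.6-fold of each other. Of the 12 UMIs, 5 were in 1 cell.

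The share of ciliated-like cells with a Gmnc UMI was 1.92% in GFP+ and 32.5% in GFP- cells of the iBC trachea, and 38.7% in GFP+ and 31.9% in GFP- cells of the primary BC trachea. After each cell was thinned to 5000 UMIs these shares were 1.14%, 16.8%, 16.0% and 11.8% in the same order of libraries. Median UMIs per ciliated-like cell were 11861 and 11853 in the iBC trachea, so depth was alike in the pair that differs. In basal-like cells, which should lack the gene, 0%, 0.491%, 1.1% and 1.36% had a Gmnc UMI in the same order, at median depths of 7771 to 12366 UMIs. The 0 of 704 basal-like cells in the GFP+ iBC library allows a share of up to 0.426% by 3 counts, which is not an exact limit. The 1.92% of its ciliated-like cells rests on 5 cells. As a bare share it lies above this limit and the 3 other basal-like shares. No interval is set beside it, so a difference from those shares is not shown.

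Genes called between 2 sums are those at least 1.5-fold apart with an interval that excludes 1 and at least 20 CPM in either sum. This call was met by 19.9% of 7120 tested genes between GFP+ and GFP- ciliated-like cells of the iBC trachea, and by 3.13% of 6905 in the primary BC trachea. In the iBC trachea 10.5% were higher and 9.4% lower in GFP+ cells, and in the primary BC trachea 1.68% and 1.45%. The call was met by 24.1% of 7249 between the GFP+ cells of the 2 tracheas and by 17.8% of 7064 between the GFP- ones; there, 12.6% and 7.87% were higher and 11.5% and 9.91% lower in the iBC trachea. Of the 10 genes, 8 reached 20 CPM in these sums, all but Mcidas and Foxn4, and 4, 2, 3 and 5 of the 8 were called in the 4 comparisons in this order. Gmnc was called lower in the GFP+ cells of the iBC trachea, with a ratio to the GFP- cells of 0.0853 (0.0432 to 0.153). Its ratio to the GFP+ cells of the primary BC trachea was 0.0926 (0.0465 to 0.168), 10.8-fold lower. Within the primary BC trachea the GFP+ to GFP- ratio was 1.47 (1.12 to 1.93) and was not called. Between GFP- cells it was 1.60 (1.25 to 2.05), called higher in the iBC trachea.

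Gmnc was also found in secretory-like cells, and again least in the GFP+ iBC library. Its level there was 3.01 CPM in GFP+ and 7.26 CPM in GFP- cells of the iBC trachea, and 18.6 CPM in GFP+ and 16.5 CPM in GFP- cells of the primary BC trachea. The GFP+ to GFP- ratio in the iBC trachea was 0.414 (0.231 to 0.705), and the ratio of GFP+ iBC to GFP+ primary BC cells was 0.161 (0.0928 to 0.265). All these levels are under 20 CPM, so no call was made. In the primary BC trachea 49.4% of GFP+ and 52.2% of GFP- Gmnc UMIs came from secretory-like cells, more than the 44.5% and 43.7% from ciliated-like cells. Gmnc was in this respect unlike Foxj1, whose secretory-like level was 12.9 CPM in GFP+ and 41.5 CPM in GFP- cells of the primary BC trachea, against 783 and 840 CPM in the ciliated-like cells.

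Marker genes of other classes were also read in the ciliated-like cells. The 13 secretory markers, all detected, summed to 26292 CPM in GFP+ and 18310 CPM in GFP- cells of the iBC trachea, and to 34325 CPM in GFP+ and 26179 CPM in GFP- cells of the primary BC trachea. Of the 12 immune markers, 2 had UMIs in each iBC library and 3 and 7 in the GFP+ and GFP- primary BC libraries. Their sum was 181 CPM in GFP+ and 4346 CPM in GFP- cells of the iBC trachea, and 4671 CPM in GFP+ and 2604 CPM in GFP- cells of the primary BC trachea. The immune sum is thus low where Gmnc is low, and its part in the Gmnc difference was not tested.

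**Figure D1:**
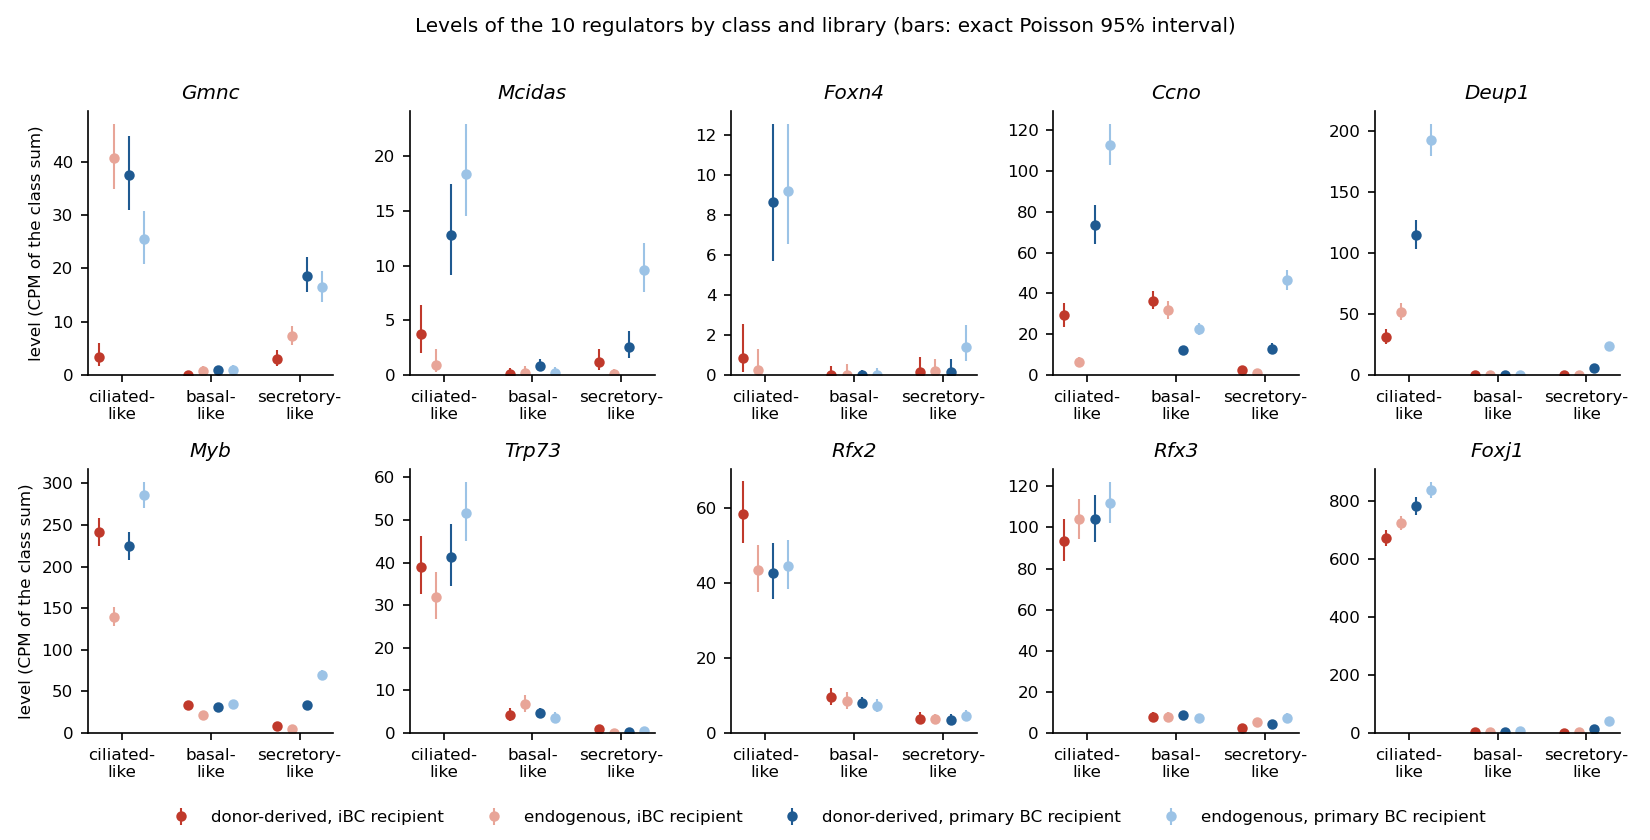
Level of each of the 10 genes in CPM of the class sum (vertical axis), by cell class (horizontal axis) and library (points; donor-derived is GFP+, endogenous is GFP-), with exact Poisson 95% intervals for counting error. Foxj1 lies between 674 and 840 CPM in the ciliated-like cells of all 4 libraries, while Gmnc is at 3.47 CPM in the GFP+ iBC library and at 25.5 to 40.7 CPM in the others.

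Trp73, a p53 relative without which mice lack most multiciliated cells, was found mainly in ciliated-like cells. Its level was 39 CPM (32.7 to 46.2) in GFP+ and 31.9 CPM (26.8 to 37.7) in GFP- cells of the iBC trachea, and 41.3 CPM (34.5 to 49.1) in GFP+ and 51.7 CPM (45.0 to 59.0) in GFP- cells of the primary BC trachea. The GFP+ to GFP- ratio was 1.22 (0.958 to 1.56) in the iBC and 0.8 (0.638 to 0.998) in the primary BC trachea, and neither was called. Between the GFP- cells Trp73 was called lower in the iBC trachea, at a ratio of 0.617 (0.495 to 0.767). Its basal-like level was 3.54 to 6.73 CPM, or 6.85% to 21.1% of the ciliated-like level of the same library, and its secretory-like level at most 0.835 CPM.

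Myb, a transcription factor that is switched on early in airway cells taking the ciliated fate and is also known from dividing cells, was detected in all 3 main classes. Its ciliated-like level was 241 CPM (225 to 258) in GFP+ and 140 CPM (129 to 151) in GFP- cells of the iBC trachea. It was 224 CPM (208 to 241) in GFP+ and 286 CPM (270 to 302) in GFP- cells of the primary BC trachea. Myb was called higher in GFP+ than GFP- cells of the iBC trachea, 1.73-fold (1.55 to 1.92), where Gmnc was lower. Its ratio in the primary BC trachea was 0.785 (0.714 to 0.862) and it was not called. Between GFP- cells it was called lower in the iBC trachea, at 0.489 (0.443 to 0.540). Without the cells of at least 10 UMIs of Deup1, Ccno and Mcidas described below, the GFP- levels were 138 CPM in the iBC and 193 CPM in the primary BC trachea, a ratio of 0.714 (0.639 to 0.797) that is no longer called.

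The basal-like level of Myb had the same order in the iBC trachea. It was 34 CPM in GFP+ and 21.1 CPM in GFP- basal-like cells, 1.61-fold higher (1.31 to 1.99) in the GFP+ ones. Only Myb and Ccno of the 10 genes reached 20 CPM there, and of these Myb was called, where 16.6% of all tested genes were. In basal-like cells of the primary BC trachea Myb was at 31.3 CPM in GFP+ and 34.4 CPM in GFP- cells. The basal-like level was 12% to 15.1% of the ciliated-like level of the same library, while the 20 ciliated markers stood at 1.28% to 2.7%. Rfx2, Rfx3 and Trp73 were likewise above the marker share, at 16.1% to 19.4%, 6.42% to 8.52% and 6.85% to 21.1%. Foxj1 was below it, at 0.315% to 0.784%. Free RNA was not measured, and its part in the basal-like levels was not tested.

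Ccno was the only one of the 10 genes whose level was higher in basal-like than in ciliated-like cells of a library, with all cells in the iBC trachea alone. Its product is an atypical cyclin needed for centriole amplification. In basal-like cells it stood at 36.5 CPM (32.5 to 41.0) in GFP+ and 31.7 CPM (27.5 to 36.3) in GFP- cells of the iBC trachea, and at 12.3 CPM (10.6 to 14.2) in GFP+ and 22.4 CPM (19.6 to 25.5) in GFP- cells of the primary BC trachea. Without the cells of at least 10 UMIs described below, which Ccno itself helped to choose, it was higher in basal-like cells of the primary BC trachea too, at 11.6 CPM against 5.23 CPM in ciliated-like cells of the GFP+ and at 22.4 CPM against 2.43 CPM of the GFP- library. UMIs were spread over 168, 141, 141 and 164 basal-like cells in this order, with at most 11 in 1 cell. The GFP+ basal-like cells of the iBC trachea were 2.97-fold higher (2.46 to 3.59) than those of the primary BC trachea, where 25.6% of all genes were called. In the GFP- basal-like cells, where 11.6% were called, Myb was lower in the iBC trachea at 0.613 (0.5 to 0.749). GFP+ basal-like cells of the primary BC trachea were at 0.549 (0.450 to 0.670) of the GFP- ones, where 1.85% were called.

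In ciliated-like cells Ccno was at 29.2 CPM in GFP+ and 6.24 CPM in GFP- cells of the iBC trachea, and at 73.3 CPM in GFP+ and 113 CPM in GFP- cells of the primary BC trachea. The GFP+ iBC interval of 23.8 to 35.5 CPM overlaps that of the basal-like cells of this library. These sums rest on few cells. Only 17, 6, 20 and 22 ciliated-like cells in the same order had a Ccno UMI, and 1 cell alone held 84 of the 101 UMIs of the GFP+ iBC sum. The GFP+ to GFP- ratio in the iBC trachea was 4.68 (3.04 to 7.45). Without the cells of at least 10 UMIs described below, 17 UMIs were left in GFP+ and 5 in GFP- cells, a ratio of 4.26 (1.51 to 14.8) at under 20 CPM. With the class limits doubled, which leaves 253 GFP+ and 336 GFP- cells, the log2 ratio of Ccno was -0.27, against 1.61 as reported.

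Deup1, which builds the deuterosome, was nearly missing from basal-like cells, at 0.125 to 0.306 CPM in the 4 libraries. Its ciliated-like level was 31.2 CPM (25.6 to 37.7) in GFP+ and 51.5 CPM (45.0 to 58.8) in GFP- cells of the iBC trachea, and 115 CPM (103 to 127) in GFP+ and 192 CPM (179 to 206) in GFP- cells of the primary BC trachea. It was lower in GFP+ cells in both tracheas, at ratios to the GFP- cells of 0.606 (0.477 to 0.766) in the iBC and 0.596 (0.525 to 0.676) in the primary BC trachea. A Deup1 UMI was found in 21.5% of GFP+ and 33.3% of GFP- ciliated-like cells of the iBC trachea, and in 53.6% of GFP+ and 65.2% of GFP- ones of the primary BC trachea. Thinned to 5000 UMIs, the shares were 10.4%, 17.1%, 23.9% and 29.5% in the same order.

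Mcidas and Foxn4 did not reach 20 CPM in any ciliated-like sum and so could not be called. Mcidas was at 3.76 CPM in GFP+ and 0.924 CPM in GFP- cells of the iBC trachea, and at 12.8 CPM in GFP+ and 18.4 CPM in GFP- cells of the primary BC trachea. The 13 UMIs of the GFP+ iBC library came from 1 cell. Foxn4, a forkhead factor known from multiciliated cells of frog skin, was at 0.867 CPM in GFP+ and 0.231 CPM in GFP- cells of the iBC trachea, and at 8.65 CPM in GFP+ and 9.20 CPM in GFP- cells of the primary BC trachea. It had 0 UMIs in the basal-like cells of all 4 libraries, which allows at most 0.199 to 0.459 CPM per library by 3 counts.

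The FOXJ1 and RFX tier differed little. Foxj1, the master factor of motile cilia, was at 674 CPM (647 to 702) in GFP+ and 725 CPM (700 to 751) in GFP- ciliated-like cells of the iBC trachea, and at 783 CPM (752 to 815) in GFP+ and 840 CPM (812 to 868) in GFP- ones of the primary BC trachea. A Foxj1 UMI was found in 97.8% to 100% of ciliated-like cells. Its GFP+ to GFP- ratio was 0.930 (0.881 to 0.981) in the iBC and 0.932 (0.885 to 0.982) in the primary BC trachea. Foxj1 was thus close to level in the pair where Gmnc differed 11.7-fold.

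Rfx3 was at 93.4 CPM in GFP+ and 104 CPM in GFP- ciliated-like cells of the iBC trachea, and at 104 CPM in GFP+ and 112 CPM in GFP- ones of the primary BC trachea, and all 4 intervals overlap. Rfx2 was at 58.4 CPM in GFP+ and 43.4 CPM in GFP- cells of the iBC trachea, and at 42.6 CPM in GFP+ and 44.6 CPM in GFP- cells of the primary BC trachea. Its largest ratios were 1.34 (1.10 to 1.65) between GFP+ and GFP- cells of the iBC trachea and 1.37 (1.10 to 1.72) between the GFP+ cells of the iBC and the primary BC trachea. Neither reached 1.5-fold, and neither factor was called in any of the 4 comparisons.

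**Figure D2:**
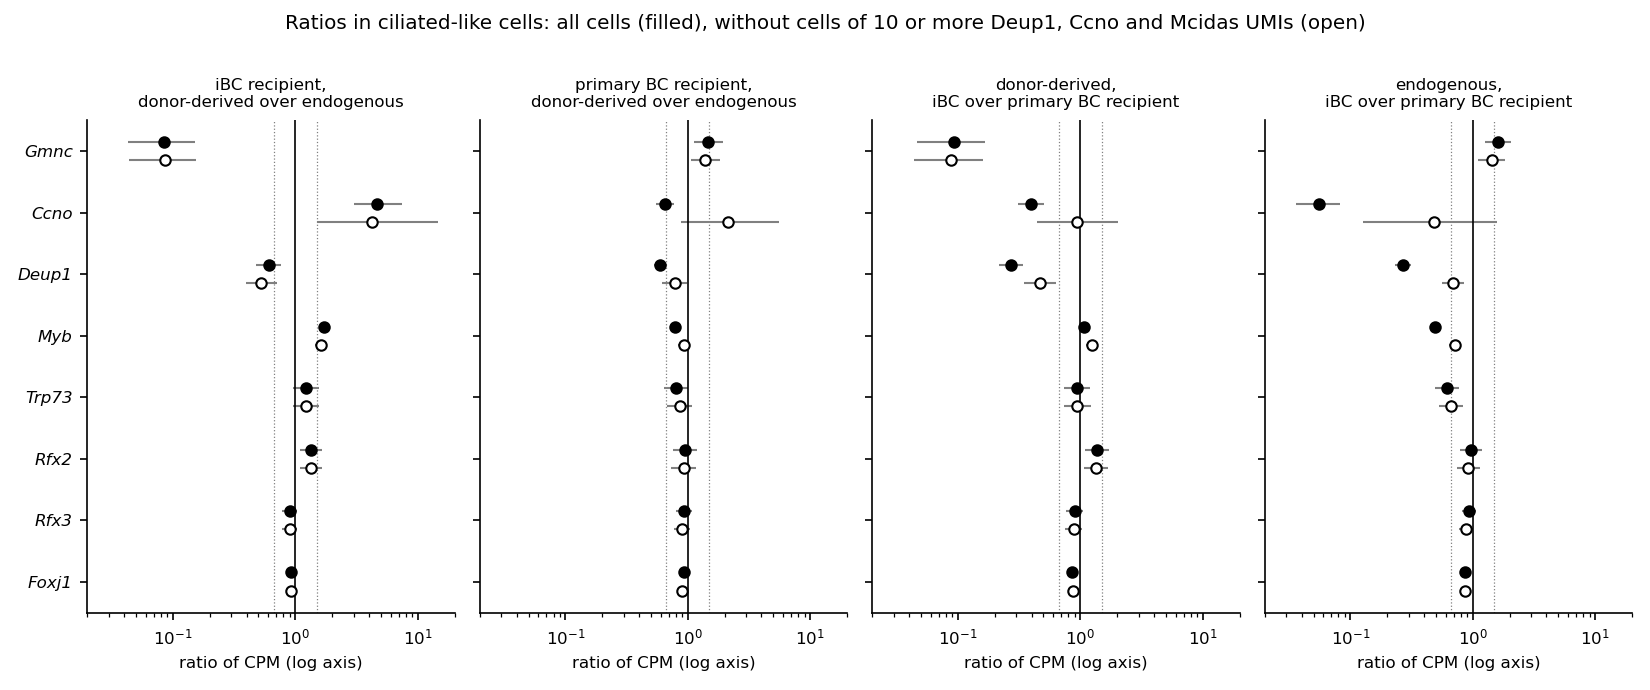
Ratios of ciliated-like sums (log axis) with exact 95% intervals for the 8 genes that reached 20 CPM, in the 4 comparisons. Filled points use all ciliated-like cells and open points leave out the cells with at least 10 UMIs of Deup1, Ccno and Mcidas, and dotted lines mark 1.5-fold. Gmnc stays near 0.0853 in the iBC trachea; Ccno in the GFP- comparison is at 0.479 without these cells and 0.0555 with them, a move that follows from leaving out cells chosen by Ccno and Deup1.

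Cells with UMIs of Deup1, Ccno and Mcidas were counted as candidates for multiciliated cells in formation. At least 2 such UMIs were found in 93 GFP+ and 85 GFP- cells of the iBC trachea, or 5.95% and 4.74% of kept cells, and in 70 GFP+ and 130 GFP- cells of the primary BC trachea, or 3.87% and 9.60%. Thinned to 5000 UMIs the shares were 2.56%, 1.87%, 1.24% and 3.32% in the same order. Most of these cells carried only 1 of the 3 genes. Ccno alone was carried by 76, 42, 23 and 43 of them, of which 62, 40, 22 and 41 were basal-like. Deup1 alone was carried by 10, 39, 31 and 50, and Mcidas alone by 0. The leading genes of these candidates against other ciliated-like cells were accordingly basal ones, among them Krt14, Trp63 and Krt5.

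Cells with at least 10 UMIs of the 3 genes were set apart, a limit chosen after their values were seen. They numbered 1 GFP+ and 2 GFP- cells in the iBC trachea, and 11 GFP+ and 25 GFP- cells in the primary BC trachea. As shares of kept cells these are 0.0640% (0.00162 to 0.356), 0.111% (0.0135 to 0.402), 0.608% (0.304 to 1.09) and 1.85% (1.2 to 2.71). Per 100 ciliated-like cells there were 0.383 and 0.556 in the iBC trachea and 6.55 and 12.3 in the primary BC trachea. The interval of the GFP- primary BC share lies above those of all 3 other libraries, and the interval of the GFP+ primary BC share overlaps those of both iBC libraries. The tracheas were taken at 192 and 69 days, and day, strain label, animal and donor cell cannot be told apart. Of the 11 GFP+ cells of the primary BC trachea, 11 had EGFP UMIs, 19 to 144 in each. Of the 25 GFP- ones, 1 had EGFP UMIs. It held 46 of the 47 EGFP UMIs of the GFP- ciliated-like cells there. It is counted here by its GFP- sort, and whether it was donor-derived was not tested.

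Of these 39 cells, 22 were classed as ciliated-like, 15 as secretory-like and 2 as basal-like, and 16 passed the limits of more than 1 class. Their median of 36764 UMIs per cell is above the ciliated-like medians of 11853 to 19157, a depth at which doublets of 2 cells have to be considered; doublets were removed by a caller that marked 0.586% to 2.96% of barcodes. A joint clustering placed 30 of the 39 in 1 cluster of 32 cells. Those outside it were secretory-like or basal-like cells in other clusters, below the ciliated limit. They include a basal-like GFP- cell of the iBC trachea with 7849 UMIs, of which 10 were Ccno, and with 0 UMIs of the 9 other genes.

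**Figure D3:**
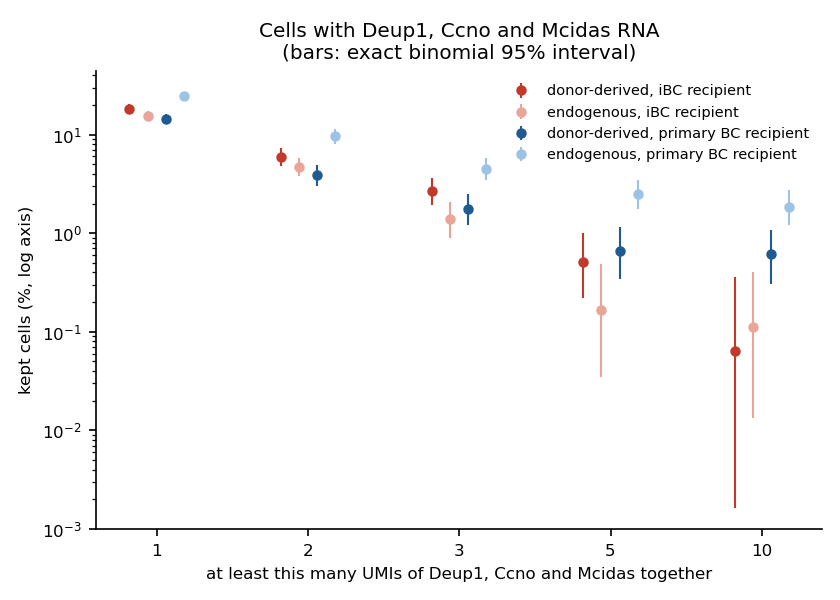
Percent of kept cells (log axis) in each library with at least 1, 2, 3, 5 or 10 UMIs of Deup1, Ccno and Mcidas together, with exact 95% binomial intervals. The libraries lie between 14.4% and 24.6% at 1 UMI and spread to between 0.0640% and 1.85% at 10 UMIs.

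Of the 7 genes that did not choose the 39 cells, Foxn4 alone had most of its UMIs in them in the primary BC trachea. There they carried 96.4% of the GFP+ and 96.0% of the GFP- Foxn4 UMIs. For Myb the shares were 19.9% in GFP+ and 43.3% in GFP- cells, for Foxj1 13.0% and 19.3%, and for Gmnc 1.90% and 4.86%. The same cells held 1.52% of all GFP+ and 3.94% of all GFP- UMIs, so Gmnc was close to the share of total RNA. The shares of the genes that chose the cells follow in part from the choice; they were 88.7% and 91.7% for Mcidas, 67.7% and 78.5% for Deup1, and 60.4% and 76.2% for Ccno.

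**Figure D4:**
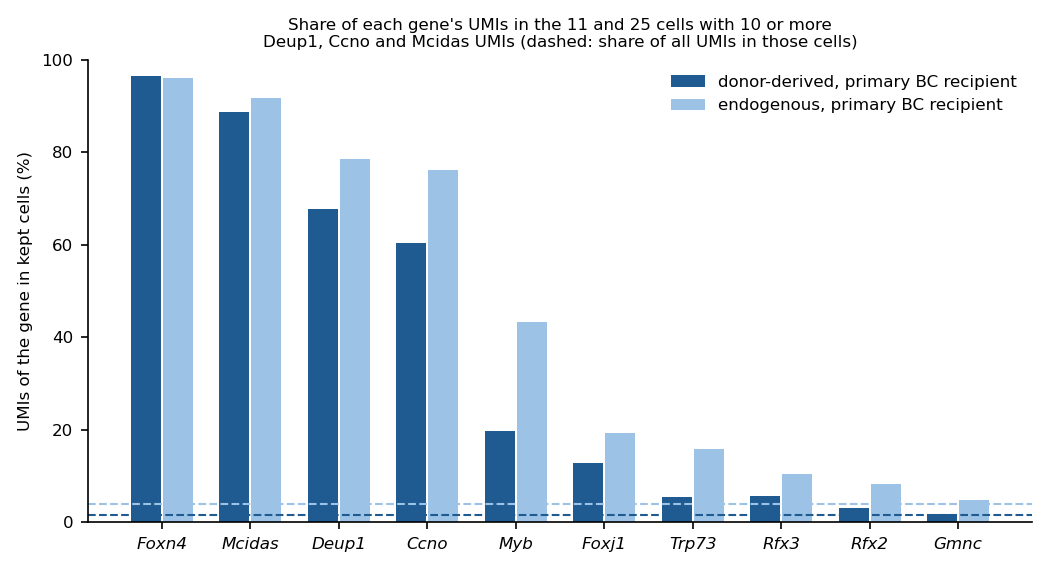
Percent of each gene's UMIs that lay in the 11 GFP+ and 25 GFP- cells with at least 10 UMIs of Deup1, Ccno and Mcidas in the primary BC trachea, with dashed lines at the share of all UMIs, 1.52% and 3.94%. Foxn4, which did not choose the cells, is at 96.4% and 96.0%, and Gmnc at 1.90% and 4.86%.

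Set against ciliated-like cells of the same library that were no candidates, Myb was 5.31-fold higher (5.02 to 5.61) in the 39 cells, with 1299 UMIs where 245 would be awaited at the level of those cells. Foxj1 was level, with 1184 UMIs against 1150 awaited. Gmnc was lower, with 18 against 47.6 (ratio 0.378, 0.224 to 0.598), as were Rfx2 with 34 against 64.9 and Rfx3 with 102 against 167. For Trp73 the ratio was 0.795 (0.593 to 1.04). Of the 39 cells, 15 were classed as secretory-like and 2 as basal-like. The part of this mix in the ratios to ciliated-like cells was not tested. Foxn4 had 77 UMIs where 0.0200 would be awaited. The intervals of observed over awaited UMIs take the awaited number as fixed and leave out its own counting error. Against secretory-like cells, Foxj1 had 1184 UMIs where 3.58 would be awaited, and Gmnc 18 where 22.9 would be (0.786, 0.466 to 1.24). The interval of Gmnc against secretory-like cells includes 1.

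Of 27 deuterosome and centriole genes outside the 10, 22 had an interval above the level of other ciliated-like cells, 2 an interval that includes it and 3 an interval below it. An interval above it was found for 31.0% of the 8541 genes with at least 20 UMIs observed or awaited. The median ratio of the list was 3.22 and 7 of its genes were at least 10-fold higher, against a median of 0.904 and 2.52% of genes at least 10-fold higher over the 8541 genes with at least 20 UMIs observed or awaited. Cdc20b, the neighbour of Mcidas, had 85 UMIs in the 39 cells where 0.0100 would be awaited, and a Cdc20b UMI was found in 33 of them. Plk4, the kinase that starts centriole duplication, had 452 against 2.13, Stil 146 against 1.58, Poc1a 290 against 4.05, Cep152 105 against 7.39 and Cenpj 113 against 18.7. Pcm1, of the centriolar satellites, had 1298 against 444. The 3 lower ones were Cetn4 with 265 against 611, Ccdc78 with 178 against 376 and Poc1b with 23 against 40.2. For Spice1, with 199 against 202, and for Ninl, with 3 UMIs, the interval includes 1. By the size rule for named genes, the leaders were Plk4, Top2a (406 against 1.26), Shisa8 (299 against 0), Cdk1 (292 against 2.38), Cox6b2, Ccdc18, Hyls1, Mycl, Scgb3a1 and Poc1a, followed by Cenpf, Cdc20, Dnah8, Dmbt1 and Ccna1. Top2a, Cdk1, Cdc20, Cenpf and Ccna1 are genes of the cell cycle or meiosis, and Scgb3a1 is a secretory gene. Top2a and Cenpf are also among the markers that class cells as cycling, and the part of this in their ratios was not tested.

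Scgb3a1 did not behave alike in all libraries. It was above the awaited number in 3 of the 4, with 6538 CPM in the 11 GFP+ and 18200 CPM in the 25 GFP- cells of the primary BC trachea, against 1176 and 208 CPM in the other ciliated-like cells there. In the 2 GFP- cells of the iBC trachea it was at 202 CPM, against 1572 CPM in the other ciliated-like cells. Scgb3a1 is 1 of the 13 secretory markers that class the cells. Secretory-like were 3 of the 11 and 12 of the 25 cells of the primary BC trachea, and 0 of these 2. The part of this mix of classes in the difference was not tested. Shisa8 had 0 UMIs in the other ciliated-like cells of all 4 libraries and 7, 6, 79 and 207 in the chosen cells, in the order of GFP+ iBC, GFP- iBC, GFP+ primary BC and GFP- primary BC.

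The 39 cells were ordered by their ciliated marker score, which uses none of the 10 genes, into 10 cells under 1, 14 from 1 to 2 and 15 of 2 or more; their median secretory score was 4.86, 4.02 and 2.05. Foxj1 was at 357, 1201 and 777 CPM along this order and Myb at 782, 1412 and 589 CPM. Trp73 was at 3.43, 17.9 and 68.4 CPM and Foxn4 at 17.1, 37.8 and 86.3 CPM, both highest in the last bin. Gmnc was at 24.0, 11.9 and 8.14 CPM, from 7, 6 and 5 UMIs, with overlapping intervals.

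Of the genes that chose the cells, Mcidas was at 134, 237 and 106 CPM, Ccno at 586, 1282 and 684 CPM, and Deup1 at 178, 846 and 1099 CPM. Deup1 was highest in the last bin, and Mcidas and Ccno were highest in the middle one. Rfx3 was at 27.4, 83.6 and 84.7 CPM and Rfx2 at 13.7, 37.8 and 17.9 CPM.

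These orders were compared within the primary BC libraries. Trp73 was at 13.2, 0 and 43.4 CPM in the 2, 3 and 6 GFP+ cells and at 0, 23.6 and 92.2 CPM in the 7, 10 and 8 GFP- ones. The GFP+ values rest on 1, 0 and 10 UMIs and their intervals overlap, while in the GFP- cells the interval of the last bin (63.1 to 130) lies above the others. Foxn4 was at 0, 22.5 and 108 CPM in the GFP+ and 24.0, 42.0 and 77.8 CPM in the GFP- cells. Foxj1 did not keep 1 order. It was at 172, 775 and 1098 CPM in the GFP+ cells, highest in the last bin, and at 437, 1246 and 568 CPM in the GFP- cells, highest in the middle one.

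**Figure D5:**
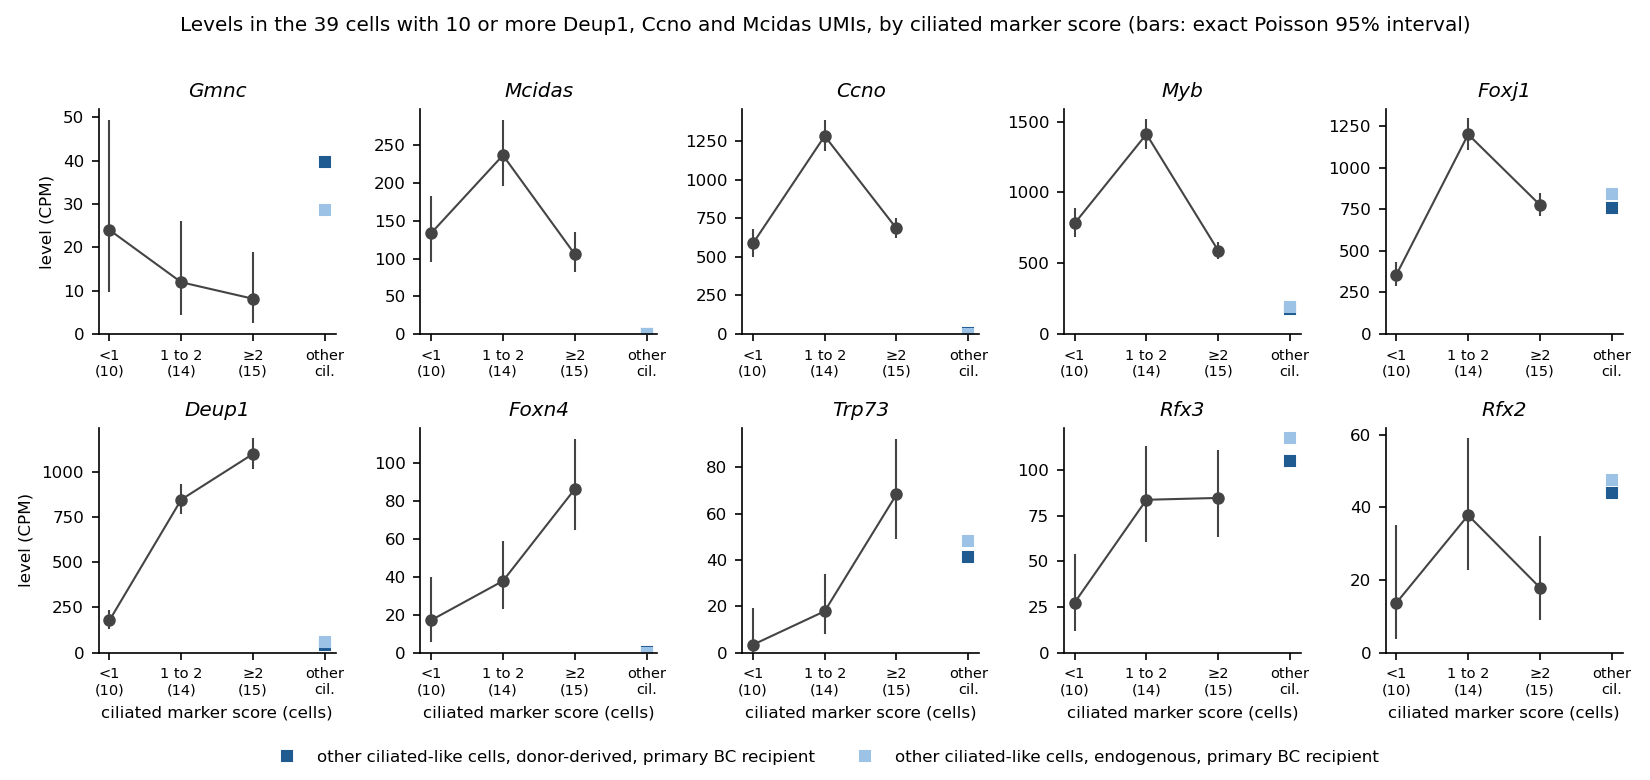
Level in CPM of each gene in the 39 cells with at least 10 UMIs of Deup1, Ccno and Mcidas, binned by ciliated marker score (10, 14 and 15 cells), and in the other ciliated-like cells of the primary BC libraries, with exact Poisson 95% intervals. Myb is highest in the middle bin at 1412 CPM, and Trp73 and Foxn4 in the last at 68.4 and 86.3 CPM.

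The comparisons were repeated without the 39 cells, which lowers Deup1, Ccno and Mcidas by the choice of the cells. In the primary BC trachea 0 of the 10 genes were called, where 2.87% of all genes were, against 2 with them. Deup1 had a ratio of 0.780 (0.621 to 0.977), and Ccno a ratio of 2.15 (0.882 to 5.57), on the other side of 1 than the 0.652 (0.554 to 0.765) with them. Between the GFP+ cells of the iBC and the primary BC trachea, where 25% of all genes were called, Gmnc and Deup1 remained lower, at 0.0881 and 0.468 (0.345 to 0.630), and Ccno was at 0.948 (0.445 to 2.04), against 0.398 with them. Between the GFP- cells, where 15.2% of all genes were called, only Trp73 was called among the 10, at 0.665 (0.528 to 0.835), against 5 genes with all cells. In the iBC trachea Gmnc at 0.0858, Myb at 1.62 (1.45 to 1.80) and Deup1 at 0.529 (0.395 to 0.702) remained called, where 20.2% of all genes were.

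Of the 7 genes that did not choose them, the same cells held most secretory-like UMIs of Foxj1 in both primary BC libraries, 59 of 90 in GFP+ and 309 of 324 in GFP- cells, and of Myb in the GFP- one, 435 of 548, against 89 of 232 in the GFP+ one. They held fewer of the others, with 2 of 130 in GFP+ and 10 of 129 in GFP- cells of Gmnc, 2 of 24 and 12 of 35 of Rfx2, and 3 of 32 and 25 of 58 of Rfx3; Trp73 and Foxn4 had at most 11 UMIs. With all cells, Foxj1 was at 12.9 CPM in GFP+ and 41.5 CPM in GFP- secretory-like cells, and Foxj1, Myb, Ccno and Deup1 were called lower in the GFP+ ones, where 2.9% of all genes were called. Without the 39 cells Foxj1 was at 4.50 CPM in GFP+ and 2.02 CPM in GFP- secretory-like cells, and Ccno at 1.31 and 2.16 CPM. Myb was at 20.8 and 15.2 CPM, still above its 7.85 CPM in GFP+ and 5.10 CPM in GFP- secretory-like cells of the iBC trachea. Between GFP+ secretory-like cells of the 2 tracheas Myb was the only one of the 10 genes to reach 20 CPM, so the others could not be called. Myb was called lower in the iBC trachea at 0.236 (0.169 to 0.324), where 28.2% of all tested genes were called. Between the GFP- ones Foxj1, Myb, Ccno and Deup1 were called lower in the iBC trachea, where 19.3% were called. Without the 39 cells all 4 were under the 20 CPM of a call in both GFP- libraries. Foxj1 was then at 2.49 CPM in the iBC and 2.02 CPM in the primary BC trachea. Myb was at 5.10 and 15.2, Ccno at 0.867 and 2.16, and Deup1 at 0.217 and 0.270 CPM in the same order. Within the iBC trachea 0 of the 10 reached 20 CPM in secretory-like cells, so none of them could be called. Of all tested genes, 26.6% were called there.

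Genes of the same program outside the 10 were read from lists, as counts of called genes in ciliated-like cells. In the iBC trachea 31 of 31 axoneme genes that depend on FOXJ1 or RFX factors were tested, and 0 were called higher and 7 lower in GFP+ cells, where 10.5% of all tested genes were called higher and 9.4% lower. Spag16 of the central apparatus was at 4.92 CPM in GFP+ and 264 CPM in GFP- cells, and Drc1 of the dynein regulatory complex at 9.54 CPM in GFP+ and 327 CPM in GFP- cells. Cfap54, Ccdc39, Cfap43 and Tekt2 were called lower too, at ratios of 0.484, 0.525, 0.617 and 0.315, as was Tekt1 at 0.0333. The other 24 were not called, and the list's median log2 ratio was 0.02, against 0.08 over all tested genes. Of the same 31 genes, 0 were called in either direction in the primary BC trachea. Between the GFP+ cells 1, Wdr66, was higher and 7 were lower in the iBC trachea, against 12.6% and 11.5% of all genes, and between the GFP- cells 0 were higher and 4 lower, against 7.87% and 9.91%.

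Of 27 deuterosome and centriole genes, 3 were called higher in GFP+ cells of the iBC trachea among 16 tested, where 10.5% of all genes were: Cep97 at 2.04-fold, Cep78 at 1.85-fold and Poc5 at 1.60-fold. In the primary BC trachea 3 of 19 were called lower in GFP+ cells, Plk4, Cep135 and Cep78, where 1.45% of all genes were, and 0 of 16 without the 39 cells, where 1.11% were. Between the GFP- cells 12 of 19 were lower in the iBC trachea, where 9.91% of all genes were, and 3 of 16 without the 39 cells, where 8.18% were. Among the 12, Plk4 was at 4.39 CPM in the iBC and 55.7 CPM in the primary BC trachea. Between the GFP+ cells 3 of 19 were lower in the iBC trachea, Poc1a at 0.149, Plk4 at 0.506 and Cep120 at 0.589, a share near the 11.5% of all genes. Without the 39 cells 0 of 16 were lower and 1 higher there, where 25% of all genes were called in either direction.

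Of 17 cell cycle genes with a role in multiciliated cells, 4 of 6 tested were lower in GFP- cells of the iBC than of the primary BC trachea, where 9.91% of all genes were, and 0 of the 3 still tested without the 39 cells. These were Cdk1, Ccna1, Cdc20 and the inhibitor Cdkn1a. Between the GFP+ cells 3 of 5 were lower in the iBC trachea, Cdk1, Ccna1 and Cdkn1a, where 11.5% of all genes were. Without the 39 cells 1 of 3 was lower, where 25% of all genes were called in either direction. Within the primary BC trachea 2 of 6, Cdk1 and Cdc20, were lower in GFP+ cells, where 1.45% were. Without the 39 cells 0 of 3 were lower there, where 1.11% were. In the iBC trachea, where 9.4% were lower, 1 of 3 tested was, Cdkn1a, at 76.3 CPM in GFP+ and 137 CPM in GFP- cells.

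Of 15 genes of the Notch pathway, whose signal holds back the ciliated fate in the cell that receives it, 7 were tested in the iBC trachea. Of these 4 were called, against 19.9% of all genes. The receptor Notch1, at 1.81-fold, and the ligand Jag2, at 2.32-fold, were higher in GFP+ cells, and Notch2, at 0.586, and Hes6, at 0.590, were lower; Hes6 is known as an antagonist of Hes1. Between GFP+ cells of the iBC and the primary BC trachea 4 of 6 were higher in the iBC trachea, against 12.6% of all genes: Notch1 at 4.21-fold, Jag2 at 3.73-fold, the target Hes1 at 2.01-fold and Jag1 at 1.51-fold. Between the GFP- cells 3 of 6 were higher in the iBC trachea, Notch1, Notch2 and Hes1, against 7.87%. Of 4 tested in the primary BC trachea, where 3.13% of all genes were called, 0 were.

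Among 13 airway transcription factors, Foxq1 was at 199.8 CPM in GFP+ and 7.40 CPM in GFP- ciliated-like cells of the iBC trachea, a 27.0-fold difference (19 to 39.8), and Ehf was 1.70-fold higher. Klf5, Elf3 and Grhl2 were lower in the GFP+ cells, at ratios of 0.416, 0.486 and 0.653, so that 5 of 12 tested were called, against 19.9% of all genes. Among 11 tested in the primary BC trachea, 1 was called, Foxa2 at 0.619, against 3.13%. Between the GFP+ cells 2 of 12 were higher, Foxq1 and Foxa2, and 3 lower in the iBC trachea, Klf5, Elf3 and Grhl2, against 12.6% and 11.5% of all genes. Between the GFP- cells 0 of 11 were called, where 17.8% of all genes were. Of 12 genes of the geminin family and their E2F partners, 5 were tested. Tfdp2 was 1.54-fold higher and Rbl2 at 0.613 in GFP+ cells of the iBC trachea, where 19.9% of all genes were called, and 0 were called in the other 3 comparisons. Of 8 relatives of the RFX and p53 families, 2 were tested and 0 called in all 4 comparisons.

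Genes whose levels ran most like a given gene were named by Pearson's r of log2(CPM + 5) over 13 library and class sums, as a description with no p, since sums of 1 library share depth and free RNA. Nearest to Foxj1 were Eml1, Cfap45, Pifo, Ccdc162 and Meig1 (r of 0.993 to 0.994). Nearest to Gmnc were Arhgef38 (0.957), Asah2, Itln1, Galntl6 and Rbm24 (0.926). Arhgef38 was at 10.7 CPM in GFP+ and 67.0 CPM in GFP- ciliated-like cells of the iBC trachea, and at 97.7 CPM in GFP+ and 96.0 CPM in GFP- ones of the primary BC trachea. Rbm24 was at 11.9 and 56.6 CPM in the iBC and at 93.5 and 98.6 CPM in the primary BC trachea, in the same order of GFP+ and GFP- cells. Since they were picked for running like Gmnc, their low level in the GFP+ iBC library is a description. Nearest were Lin7c to Myb (0.976), Tspoap1 to Rfx2 (0.996), Chchd6 to Rfx3 (0.996), Lrrc49 to Trp73 (0.992), Acox2 to Deup1 (0.979) and Pdk3 to Ccno, the loosest at 0.870. Mcidas and Foxn4 reached 20 CPM in none of the sums and were not compared.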

How the data were processed

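The values deposited by the authors are whole-number UMI counts, 1 matrix per library, and entered the analysis unchanged. The build was GRCm38, per the submitters' processing notes, which list Cell Ranger, STARsolo and Seurat without versions. Which of these programs counted the reads, and whether strand was used, is not given in the sources used here.

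The 10 genes, the marker and pathway lists and the comparisons were chosen with earlier results of these data known, the lists coming in part from that earlier work. The limits of the classes were chosen while looking at these data. Barcodes with under 500 genes or over 20% mitochondrial UMIs were removed (11, 40, 57 and 52 in the GFP+ iBC, GFP- iBC, GFP+ primary BC and GFP- primary BC libraries), and doublets were called per library with Scrublet in scanpy 1.11.5 and removed (22, 56, 11 and 15). Each kept cell was classed by the mean log2 value of its markers against a limit per class, going to the class furthest above its limit. Of the ciliated-like cells, 8, 5, 12 and 5 passed more than 1 limit. A joint clustering (leidenalg 0.10.2) gave 21 clusters and was used as a check.

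Counts were summed per library and class and given as CPM. Poisson intervals for levels, conditional binomial intervals for ratios and Clopper-Pearson intervals for shares were computed with scipy 1.17.1 at 95%. A gene was tested with at least 20 CPM in either sum and called at 1.5-fold or more with an interval that excludes 1. With 1 library per group there was no test. The calls were tested on simulated data with known changes. UMI numbers awaited in chosen cells were computed within each library and taken as fixed in the intervals of observed over awaited UMIs. Named genes were the 10 genes, per gene the 5 nearest by Pearson's r, the 15 with the largest ratio in candidates among those with at least 20 UMIs and above the awaited number in at least 3 libraries, and the called genes of the lists. Of 126 listed genes, 3 (Centrob, Spag6l and Cfap299) had no feature. Alternatives included edgeR 4.0.16 TMM scaling, other cell filters, class limits, thresholds and pseudocounts.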

Additional observations from a re-analysis of the deposited data

Results flagged for a closer look

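For Gmnc the GFP+ to GFP- log2 ratio in ciliated-like cells (pseudocount 5 CPM) was -2.43 in the iBC trachea and 0.48 in the primary BC trachea, of opposite direction. For Myb the log2 ratios were 0.77 in the iBC trachea and -0.34 in the primary BC trachea. For Ccno they were 1.61 in the iBC trachea and -0.59 in the primary BC trachea, and its values rest on few cells in each library. With 1 library per group, these differences between the tracheas were not tested.

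A second reporter, MCHERRY-FRT, had 32 UMIs in GFP+ ciliated-like cells of the iBC trachea and 209 in all kept cells of that library. It had 0 UMIs in the other 3 libraries.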

How the results depend on the processing

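No paired analysis was possible because each group is 1 library and the labels give no replicate numbers; leaving out a replicate was not possible for the same reason. The number of the 10 genes called in ciliated-like cells changed under some settings. With a 2-fold call it was 2 in the iBC trachea (4 as reported), 0 in the primary BC trachea (2) and 3 between GFP- cells (5). It was 0 in the primary BC trachea with doubled class limits, and 1 there and 1 between GFP- cells without candidates of at least 2 UMIs. Without the cells of at least 10 UMIs, chosen after seeing the data, it was 0 and 1. With a minimum of 5 CPM, or none, it was 5 between GFP+ cells (3 as reported), and with a stricter cell filter (at most 10% mitochondrial UMIs and a higher minimum of genes) it was 3 between GFP- cells.

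Ccno was the only one of the 10 genes whose called log2 ratio turned. It was -0.27 in the iBC trachea with doubled class limits, 0.69 in the primary BC trachea without candidates of at least 2 UMIs and 0.46 without the cells of at least 10, and 0.17 between GFP- cells without candidates of at least 2 UMIs; the settings leave out the few cells that hold most Ccno UMIs, or change the class, and further causes were not tested. The Gmnc log2 ratio stayed between -3.22 and -1.37 in the iBC trachea and between -3.11 and -1.29 for GFP+ iBC against GFP+ primary BC cells, over all settings run.

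The share of candidates moved with its definition. In the order GFP+ iBC, GFP- iBC, GFP+ primary BC and GFP- primary BC, it was 18.2%, 15.5%, 14.4% and 24.6% with at least 1 UMI, and 2.69%, 1.39%, 1.77% and 4.51% with at least 3. With UMIs of at least 2 of the genes it was 0.448%, 0.223%, 0.885% and 2.73%, and with at least 10 UMIs 0.0640%, 0.111%, 0.608% and 1.85%. Thinned to 5000 UMIs it was 2.56%, 1.87%, 1.24% and 3.32%, and thinned to 3000 UMIs 1.18%, 0.870%, 0.788% and 2.32%. The GFP+ primary BC library was lowest at 1 or 2 UMIs but above both iBC libraries at 10. Levels under about 5 CPM rest on few UMIs, so differences of Mcidas and Foxn4 outside the 39 cells were not detectable at this depth.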
